A study of Homo sapiens with 6 samples.

Results

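The genes described here encode surface or secreted molecules through which a tumor cell can restrain immune cells. They are CD274, PDCD1LG2, CD276, CD47, NT5E, ENTPD1, LGALS3, LGALS9 and TNFRSF14. The 9 genes were taken by name from the 60617 gene identifiers of 6 RNA-seq libraries. The search by name used no measured value, but the 9 names were chosen with earlier results of these data known. All 9 had enough signal to be among the 16555 genes tested, although LGALS9 reached the minimum through the libraries of the resistant lines and not through those of parental cells.

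The libraries came from 1205Lu, a human melanoma line that carries BRAF V600E, in the form of 1205LuTR cells, which hold a GAL4-ELK1 reporter of ERK activity. Parental 1205LuTR cells were given DMSO, the vehicle, and are the drug-sensitive group. PBRT15 and PBRT16 are paradox breaker resistant tumor lines, each grown out of 1 tumor that had become resistant in an animal, and both were kept in 500 nM of PLX8394, a paradox-breaking inhibitor of mutant BRAF. The design compares each resistant line in drug with drug-free parental cells, so growth in an animal, the choice of 1 tumor and exposure to PLX8394 cannot be told apart. Each of the 3 groups had 2 libraries, and the labels do not say whether these came from separate cultures, so the p-values measure only the spread between those libraries, which may be technical. Sample codes in the titles change with the line. The 2 libraries of a group correlated with r of 0.984 to 0.986 across tested genes. With 2 libraries a group, this cannot show whether 1 of them stood apart.

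These ligands act on different brakes of immunity. PD-L1 (CD274) and PD-L2 (PDCD1LG2) bind PD-1 on T cells, B7-H3 (CD276) is a further inhibitory member of the B7 family, and CD47 binds SIRP-alpha on macrophages and blocks phagocytosis. CD39 (ENTPD1) and CD73 (NT5E) act in series outside the cell, the first turning ATP into AMP and the second turning AMP into adenosine, which dampens T cells through its receptors. Galectin-3 (LGALS3) and galectin-9 (LGALS9) bind sugars on T cell surface proteins, and HVEM (TNFRSF14) engages BTLA and CD160. PD-L1 and galectin-9 are known to be induced by interferon in many cell types.

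The values are the deposited normalized signal of each gene, whose library totals ran from 27877963 to 29580752, and the depth in reads is unknown. Mitochondrially encoded genes took 6.15 to 6.30% of the total in parental libraries and 4.09 to 4.53% in those of the resistant lines. SOX10, a transcription factor of neural crest and melanocytes, had 4360 and 4103 in parental cells and at most 1.495 in the other libraries. Of the melanocytic markers, TYR was at 0 in every library and MLANA reached no more than 16.2, while S100B had 8075 and 10990 in parental cells and at most 1.67 in the resistant lines. MITF, the master regulator of melanocytes, rose in both lines, from 109 and 113 to 824 and 927 in PBRT15 and to 2209 and 2159 in PBRT16 (adjusted p = 0.000202 and 8.44e-05, limma), and PRAME had 3486 to 4625 over the 6 libraries. Among 16 hematopoietic markers, 7 were at 0 in both libraries of each group, CD3D, CD3E and TYROBP among them, and PTPRC reached at most 2.72. CD8A rose from 5.551 and 4.184 in parental cells to 19.78 and 29.45 in PBRT16 (adjusted p = 0.0152, limma). In PBRT15 CD8A was not called (adjusted p = 0.177, limma). ITGAM had 22.09 and 0 in parental cells against 2.824 and 64.9 in PBRT15 and 115.4 and 32.97 in PBRT16. It passed the test in neither line (adjusted p = 0.53 and 0.203, limma). The summed signal of the 16 markers was 850.5 to 1274 in parental cells, 2278 to 2736 in PBRT15 and 2286 to 3200 in PBRT16, nearly all of it CD68. Without CD68 the sum was 13.6 to 31.7, 13.9 to 83.7 and 81.4 to 140. The 8 endothelial markers summed to 40.9 to 53.7, 260 to 268 and 42.8 to 43.4, with TEK at 242 and 215 in PBRT15. These are bulk libraries, in which fewer cells with a transcript and less of it per cell cannot be told apart.

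Against parental cells, PD-L2, CD47, galectin-3 and HVEM transcripts rose in both resistant lines, galectin-9 rose in PBRT15, and CD73 fell in PBRT16. CD73 also passed the threshold in PBRT15 (adjusted p = 0.0483, limma), a call that only 8 of 18 alternatives made, with adjusted p from 0.0103 to 0.163. PD-L2 showed the largest rise among the genes called in both lines, 7.29-fold in PBRT15 and 10.8-fold in PBRT16, while PD-L1 did not pass the test in either. In PBRT15, 5 of the 9 genes rose and 2 fell, beside 21.6% of all tested genes that rose and 19.5% that fell. LGALS9, counted among the 5, was tested only because of its signal in the resistant lines. In PBRT16, 4 rose and 1 fell, beside 21.1% and 19.0% of all tested genes. The median log2 difference of the 9 genes was 1.26 in PBRT15 and 1.54 in PBRT16, and that of all tested genes was -0.01 and 0.00. Both comparisons use the same 2 parental libraries. Here and below, differences are log2 differences of signal plus 1, each gene was tested with limma across all tested genes, and a gene rose or fell at a Benjamini-Hochberg adjusted p of at most 0.05.

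**Figure D1:**
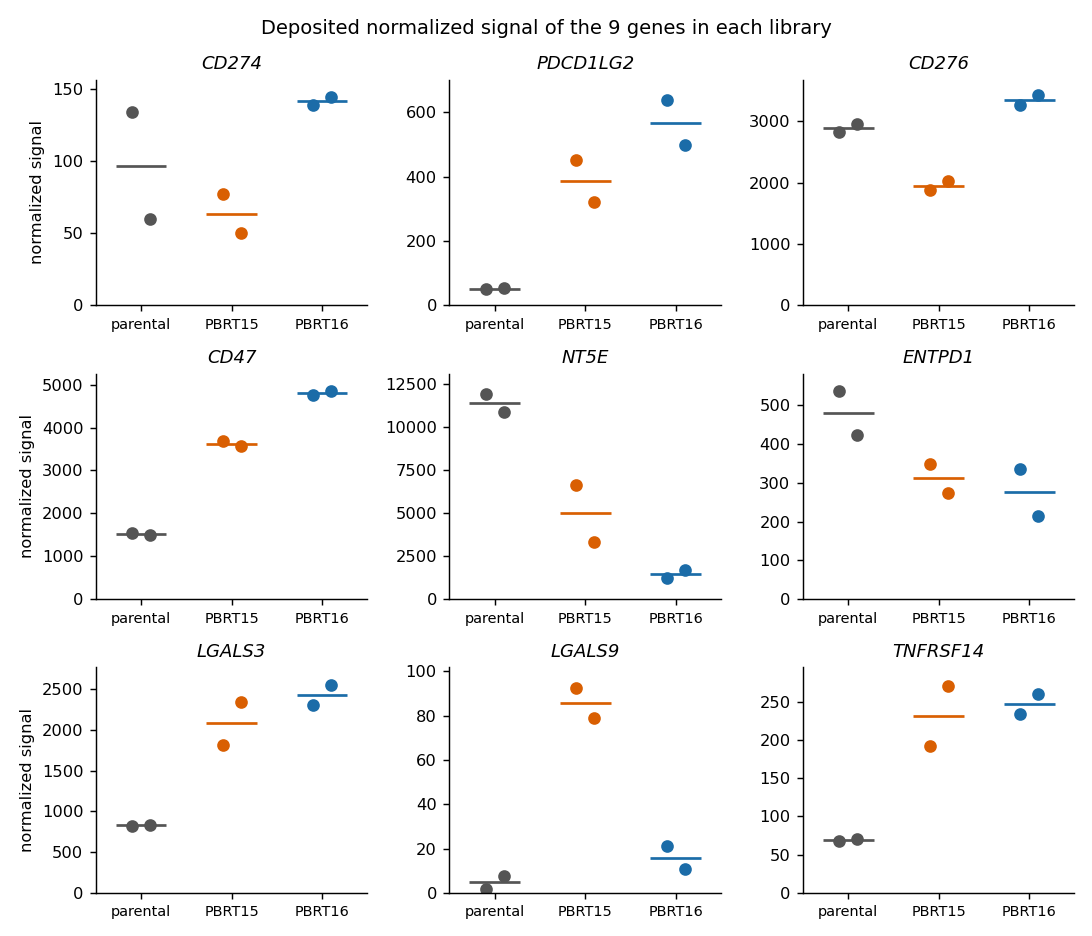
Normalized signal (vertical axes, linear, from 0) of the 9 genes in the 2 libraries (points) of parental cells in DMSO and of PBRT15 and PBRT16 in PLX8394, with horizontal lines at the group means. PDCD1LG2, CD47, LGALS3, TNFRSF14 and LGALS9 lie above the parental libraries in all 4 libraries of the resistant lines, and NT5E and ENTPD1 lie below in all 4. LGALS9 in PBRT16 and ENTPD1 in both lines did not pass the test. The parental libraries of CD274 differ from 134 to 59.5.

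The genes of the PD-1 ligands lie side by side on chromosome 9 of GRCh38, CD274 (ENSG00000120217.14) at chr9:5450503-5470566 and PDCD1LG2 (ENSG00000197646.8) at chr9:5510531-5571282, both on the plus strand. CD274 had a signal of 134 and 59.5 in parental cells against 77.0 and 49.9 in PBRT15 and 139 and 144 in PBRT16. The parental libraries differed from each other by more than the mean of either resistant line did from theirs, and those of PBRT15 overlapped them. Its log2 difference was -0.52 ± 0.43 (SE, 95% interval -1.64 to 0.60, adjusted p = 0.377, limma) in PBRT15 and 0.66 ± 0.43 (-0.47 to 1.78, adjusted p = 0.277, limma) in PBRT16. Without parental replicate 1 the value in PBRT15 was 0.06 (adjusted p = 0.903, limma), within a range of 0.0718 to 0.903 over 18 alternative analyses, none of which called it. In PBRT16 the range was 0.0604 to 0.872, again with no call. The order of the mean levels was PBRT16, parental, PBRT15, and no neighbours in it passed the test.

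PDCD1LG2 behaved differently. Its signal was 49.6 and 52.9 in parental cells against 451 and 320 in PBRT15 and 638 and 498 in PBRT16. Every library of a resistant line was above both parental libraries, and the groups did not overlap. The log2 difference was 2.87 ± 0.22 (SE, adjusted p = 0.00117, limma) in PBRT15 and 3.44 ± 0.22 (adjusted p = 0.000703, limma) in PBRT16, and all 18 alternatives made both calls. PBRT16 was higher than PBRT15 by 0.57, with a 95% interval of -0.01 to 1.15 that includes 0 (adjusted p = 0.158, limma). On a per-length scale, PDCD1LG2 and CD274 had similar levels in parental cells (21.1 ± 0.97 and 26.7 ± 14.6 signal per kb of the longest annotated transcript, mean ± SD, n = 2), whereas in PBRT16 the level was 234 ± 40.8 for PDCD1LG2 and 39.0 ± 1.08 for CD274.

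Of 19 receptors and partners of the 9 proteins, 10 were too low to test. Of the 9 tested, 5 were higher and 1 lower than parental in PBRT15, and 4 were higher and 1 lower in PBRT16. Of all tested genes, 21.6% rose and 19.5% fell in PBRT15, and 21.1% and 19.0% in PBRT16. PD-1 itself (PDCD1) was at 0 in every library, and CD80, which also binds PD-L1, reached at most 3.03. Of 18 tested genes of the interferon pathway that acts on CD274, 11 were higher and 2 lower in PBRT15 past the threshold, and 10 were higher and 1 lower in PBRT16. Their median log2 difference was 1.10 and 0.81, and 2 further genes were too low to test. SOCS1, among the 18, was tested only because of its signal in the resistant lines. IRF1, the factor through which interferon gamma drives CD274, had a signal of 164 and 204 in parental cells against 1766 and 1911 in PBRT15 and 1218 and 1039 in PBRT16 (log2 difference 3.32 and 2.62, adjusted p = 0.000354 and 0.000654, limma). SOCS3, a feedback inhibitor of cytokine receptors, rose by 5.04 and 3.53 on the log2 scale, and IRF7, a factor of the type I response, by 4.11 and 2.88. The call of IRF7 in PBRT16 was lost without PBRT16 replicate 1 (adjusted p = 0.0568, limma, the highest with a library left out). IFNGR2, a subunit of the interferon gamma receptor, fell by 1.08 and by 0.95. The interferons IFNG and IFNB1 were at 0 and at no more than 0.95. CMTM6, which keeps PD-L1 protein on the cell surface, rose by 1.04 in PBRT15 (adjusted p = 0.00291, limma) and by 0.43 in PBRT16 (adjusted p = 0.0382, limma), where the call was lost with any 1 of the 6 libraries left out (adjusted p up to 0.139).

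Promoter sequences of 8 of the 9 genes were found in RefSeq on GRCh38.p14, with 250 bases before and 50 after each start. PDCD1LG2 had no entry, CD276 had 2 and ENTPD1 had 5, each of which was searched. The core of an interferon response site, GAAA, any 2 bases and GAAA on either strand, was present in 2 of the 8, CD274 and LGALS9, and in 3.57% of 35116 promoters of the same length. The next lines show these stretches because they are the interferon-type letters among the 9 genes, read in the direction of the gene, with matches in capitals. In CD274 the capitals hold 2 cores on the opposite strand, which share bases and begin 208 and 202 bases before the start. In LGALS9 the capitals are 1 core on the opposite strand, 9 before the start and ending on the first base of the RefSeq transcript. These RefSeq starts lie inside the gene spans given here from GENCODE, 39 bases in for CD274 and 1390 bases in for LGALS9.
CD274 (GRCh38.p14, chr9:5450322-5450422, plus strand): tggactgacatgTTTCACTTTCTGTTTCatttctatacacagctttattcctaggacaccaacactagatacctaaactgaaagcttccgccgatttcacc
LGALS9 (GRCh38.p14, chr17:27631088-27631188, plus strand): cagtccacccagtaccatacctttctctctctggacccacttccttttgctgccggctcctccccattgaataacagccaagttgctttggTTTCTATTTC
The NF-kB-type letters GGGA, any 2 bases and TTCC occurred in LGALS3, 173 bases before the start, and in 1.61% of all promoters. GGGCGG, the GC box, occurred in CD274, CD276, CD47, NT5E and LGALS3 and in 45% of all promoters, and TGANTCA and CACGTG (7.71% and 7.26% of all promoters) had no match in these windows. These 5 motifs were searched on both strands after the expression values were known, and a match is a description of letters. Of the 2 genes with the interferon core, LGALS9 rose in PBRT15 and CD274 did not pass the test.

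CD276 (ENSG00000103855.18, chr15:73683966-73714514) encodes B7-H3. Its signal was 2828 and 2951 in parental cells against 1876 and 2023 in PBRT15 and 3277 and 3429 in PBRT16. PBRT15 lay below and PBRT16 above the parental libraries, with no overlap between groups. The fall in PBRT15 was 1.48-fold (log2 difference -0.57 ± 0.11, SE, adjusted p = 0.0168, limma). The call was lost without parental replicate 1 (adjusted p = 0.0642), without parental replicate 2 (0.0752) and without PBRT15 replicate 1 (0.0669), within a range of 0.00206 to 0.0752 over 18 alternatives. In PBRT16 the log2 difference from parental cells was 0.21 (95% interval -0.08 to 0.51, adjusted p = 0.191, limma). Between the resistant lines, CD276 was 1.72-fold higher in PBRT16 (log2 difference 0.78 ± 0.11, adjusted p = 0.0177, limma), which 12 of 18 alternatives also called, with adjusted p from 0.00143 to 0.090. That call was lost with any 1 library of PBRT15 or PBRT16 left out (0.0573 to 0.090). The share of all tested genes that rose between the resistant lines was 7.50%.

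The other B7 and butyrophilin ligands moved in both directions. Of 9 tested genes, 2 were higher and 3 lower in PBRT15 past the threshold, and 3 were higher and 3 lower in PBRT16. The shares that rose were 22.2% and 33.3%, beside 21.6% and 21.1% of all tested genes. The shares that fell were 33.3% in each line, beside 19.5% and 19.0%. ICOSLG, the ligand of the costimulatory receptor ICOS, fell from 527 and 810 in parental cells to 132 and 250 in PBRT15 and to 24.0 and 32.9 in PBRT16 (log2 difference -1.84 and -4.49, adjusted p = 0.0205 and 0.00159, limma), the call in PBRT15 being lost without parental replicate 2 or PBRT15 replicate 1 (adjusted p up to 0.0867). NCR3LG1, or B7-H6, a ligand of the natural killer cell receptor NKp30, fell by 1.31 and by 1.48. BTN3A1, which presents phosphoantigen signals to gamma delta T cells, rose by 1.55 and 1.61. Of the ligands of TIGIT and CD96, 4 were tested, and 1 rose and 1 fell in each line, which is 25% each way. NECTIN2 rose from 714 and 737 to 3125 and 3224 in PBRT15 and to 1800 and 1769 in PBRT16, and PVR had log2 differences of -0.03 and 0.11 with adjusted p of 0.908 and 0.613 (limma).

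CD47 (ENSG00000196776.16, chr3:108043091-108091862, minus strand) had the smallest standard error of the 9 genes. Its signal was 1530 and 1505 in parental cells against 3687 and 3560 in PBRT15 and 4767 and 4844 in PBRT16. The groups did not overlap, in the order parental, PBRT15, PBRT16. The rise was 2.39-fold in PBRT15 (log2 difference 1.26 ± 0.11, SE, adjusted p = 0.00143, limma) and 3.17-fold in PBRT16 (1.66 ± 0.11, adjusted p = 0.000663, limma), and both calls were made in all 18 alternatives. The step from PBRT15 to PBRT16 was 0.41 (95% interval 0.13 to 0.68, adjusted p = 0.0658, limma), with adjusted p of 0.0146 to 0.221 over the alternatives, 3 of which called it.

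Partners of CD47 were also measured. THBS1, thrombospondin-1, a secreted matrix protein that binds CD47, had a signal of 7829 and 9439 in parental cells against 85740 and 93630 in PBRT15 and 77170 and 118300 in PBRT16 (log2 difference 3.38 and 3.47, adjusted p = 0.00091 and 0.000855, limma). SIRPA, the receptor that CD47 engages on macrophages, was itself present in the cells, at 1260 and 1418, 1997 and 2034, and 1799 and 1808, while SIRPG was at 0. QPCTL, the enzyme that matures the binding site of CD47 for SIRP-alpha, had log2 differences of -0.02 and -0.23 with adjusted p of 0.97 and 0.527 (limma), and SIRPA and QPCTL were named after their values were seen. A further phagocytosis-blocking ligand, CD24, which binds Siglec-10, rose from 57.8 and 77.4 to 6434 and 6624 in PBRT15 and to 9218 and 11370 in PBRT16 (log2 difference 6.59 and 7.24, adjusted p = 9.78e-05 and 7.81e-05, limma). CD24 has near-identical processed copies in the genome, so its level is uncertain.

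NT5E (ENSG00000135318.12, chr6:85449584-85495791, plus strand), the gene of CD73, had the highest level per kb of the 9 in parental cells and fell in both resistant lines. Its signal was 11950 and 10890 in parental cells against 6654 and 3307 in PBRT15 and 1210 and 1692 in PBRT16. The 3 groups did not overlap, and the libraries of PBRT15 differed from each other more than those of the other groups. The fall was 7.97-fold in PBRT16 (log2 difference -2.99 ± 0.37, SE, adjusted p = 0.00432, limma), called in all 18 alternatives. In PBRT15 it was 2.43-fold (-1.28 ± 0.37, adjusted p = 0.0483, limma), a call that was made in 8 of 18 alternatives, with adjusted p from 0.0103 to 0.163. That call was kept without PBRT15 replicate 1 (0.0182) and lost with any other library left out, at 0.163 and 0.131 without parental replicates 1 and 2, 0.102 without PBRT15 replicate 2, where the log2 difference was -0.78, and 0.0673 and 0.0665 without PBRT16 replicates 1 and 2. Between the resistant lines NT5E was 3.28-fold lower in PBRT16 (-1.71 ± 0.37, adjusted p = 0.0443, limma), in a background of 8.28% of tested genes that fell. Of 18 alternatives 10 called it (adjusted p 0.00672 to 0.163), and only leaving out PBRT15 replicate 2 among the 6 libraries kept the call.

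ENTPD1 (ENSG00000138185.20, chr10:95711779-95877266), the gene of CD39, had 538 and 423 in parental cells against 350 and 273 in PBRT15 and 336 and 215 in PBRT16. All 4 libraries of the resistant lines were below both parental libraries, and PBRT15 and PBRT16 overlapped. The log2 difference was -0.62 (95% interval -1.35 to 0.10, adjusted p = 0.137, limma) in PBRT15 and -0.82 (-1.55 to -0.10, adjusted p = 0.0716, limma) in PBRT16, neither of which passed the test. Over 18 alternatives the adjusted p ran from 0.0378 to 0.397 and from 0.0204 to 0.245, with 1 call in PBRT15 and 3 in PBRT16, 1 of the latter without PBRT16 replicate 1 (0.0476).

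Among other genes of extracellular ATP and adenosine, ALPL rose in both lines from a parental signal near 0. It was tested because of its signal in the resistant lines, and the size of its log2 difference depends on the added 1. The same holds for DPP4, counted below as higher in both lines, and for ADA2, counted as higher in PBRT15. Of 13 tested genes, 5 were higher and 4 lower in PBRT15 past the threshold, and 5 were higher and 0 lower in PBRT16 (limma, with 0 lower also at an unadjusted p under 0.05), with median log2 differences of 0.22 and 0.75. The shares of all tested genes were 21.6% higher and 19.5% lower in PBRT15, and 21.1% and 19.0% in PBRT16. ALPL, the tissue-nonspecific alkaline phosphatase, which can also remove phosphate from extracellular AMP, was at 0 and 2.23 in parental cells against 512 and 547 in PBRT15 and 456 and 457 in PBRT16, with adjusted p of 0.000769 and 0.000829 (limma). P2RX7, an ATP-gated channel, rose from 12.9 and 19.4 to 423 and 302 and to 744 and 568. Its neighbour in the genome and in function, P2RX4, rose from 33.6 and 26.3 to 491 and 540 and to 491 and 648. PANX1, a channel that releases ATP, differed between the resistant lines by 1.45 on the log2 scale (adjusted p = 0.00801, limma), with 999 and 1108 in parental cells against 689 and 669 in PBRT15 and 1679 and 2058 in PBRT16. SLC29A1, a nucleoside transporter that takes up adenosine, fell by 1.13 in PBRT15 (adjusted p = 0.00499, limma) and had -0.31 in PBRT16 (adjusted p = 0.158, limma). Of the adenosine receptors, ADORA1, named after its values were seen, had 38.6 and 55.5 in parental cells against 43.3 and 79.7 in PBRT15 and was at 0 in both libraries of PBRT16 (adjusted p = 0.000575 against parental cells and 0.00181 between the lines, limma). ADORA2B fell by 0.68 in PBRT15 (adjusted p = 0.013, limma, lost without any 1 library of parental cells or PBRT15, up to 0.0664) and had a log2 difference of -0.23 in PBRT16 (adjusted p = 0.197, limma).

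**Figure D2:**
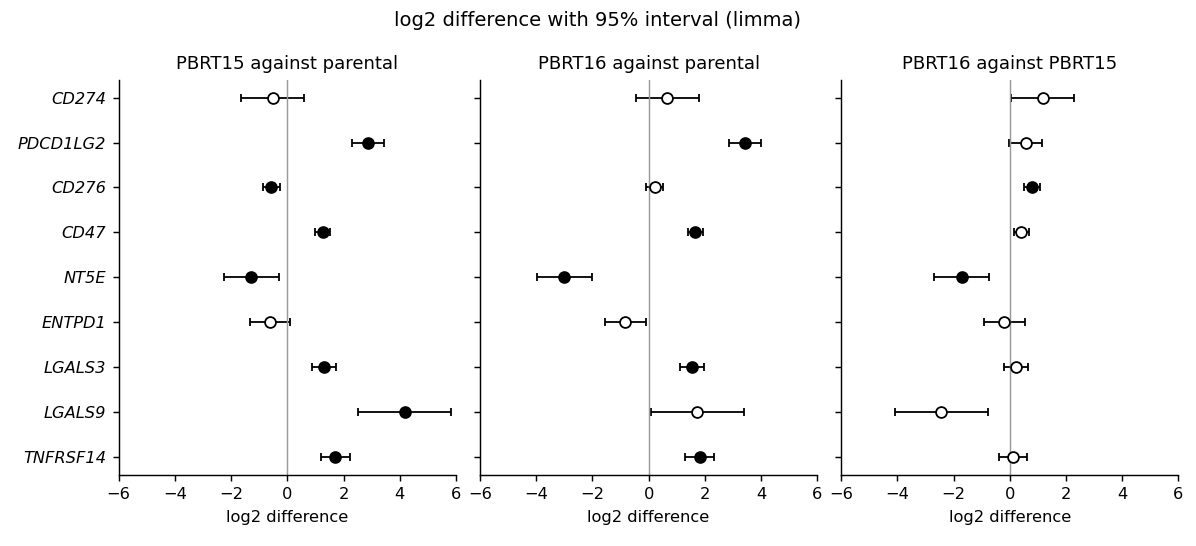
log2 difference of signal plus 1 (horizontal axes) of each of the 9 genes (vertical axis) for PBRT15 against parental, PBRT16 against parental and PBRT16 against PBRT15, with bars for 95% intervals from limma on 2 libraries a group. Filled points passed an adjusted p of 0.05, which were 7, 5 and 2 genes, beside 6796, 6641 and 2612 of all 16555 tested genes. LGALS9, filled in PBRT15, was tested only because of its signal in the resistant lines. The intervals of CD274 against parental cells include 0 in both lines.

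LGALS3 (ENSG00000131981.16, chr14:55124110-55145423, plus strand), the gene of galectin-3, a ligand of LAG-3 and of glycosylated T cell proteins, rose in both lines. Its signal was 824 and 838 in parental cells against 1820 and 2344 in PBRT15 and 2309 and 2549 in PBRT16. The resistant lines overlapped each other and lay above parental cells. The rise was 2.48-fold in PBRT15 (log2 difference 1.31 ± 0.16, SE, adjusted p = 0.00414, limma) and 2.92-fold in PBRT16 (1.54 ± 0.16, adjusted p = 0.00265, limma), each called in all 18 alternatives. The difference between the lines was 0.23 (95% interval -0.19 to 0.66, adjusted p = 0.385, limma).

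Galectin-9, a ligand of TIM-3 (HAVCR2), had its highest values in PBRT15. LGALS9 (ENSG00000168961.17, chr17:27629798-27649560, plus strand) had a signal of 1.63 and 7.75 in parental cells against 92.5 and 78.8 in PBRT15 and 20.9 and 10.6 in PBRT16. The 3 groups did not overlap, and parental values were close to 0. The log2 difference in PBRT15 was 4.17 ± 0.64 (SE, 95% interval 2.51 to 5.83, adjusted p = 0.00779, limma), called in all 19 alternatives. In PBRT16 it was 1.73 (0.07 to 3.39, adjusted p = 0.0888, limma), with a call in 1 of 19 alternatives, without parental replicate 2 (0.0261 in a range up to 0.28), where the difference was 2.599, and without parental replicate 1 it was 0.864. The parental libraries also set the size of the difference in PBRT15, which was 3.303 without parental replicate 1 and 5.038 without parental replicate 2. PBRT16 was below PBRT15 by 2.44 on the log2 scale (95% interval -4.10 to -0.78, adjusted p = 0.067, limma), which 6 of 19 alternatives called (adjusted p 0.0199 to 0.227), among them those without parental replicate 1 (0.0372) and without parental replicate 2 (0.0376). The near-identical copies LGALS9B and LGALS9C reached at most 3.81 and 0.66.

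Of the other galectins and their binding protein, LGALS1 and LGALS3BP rose. LGALS1, galectin-1, had the highest signal of the galectins, 17550 and 23200 in parental cells against 35370 and 39590 in PBRT15 and 38140 and 41510 in PBRT16 (log2 difference 0.89 and 0.98, adjusted p = 0.0167 and 0.0127, limma). These calls were lost without parental replicate 1 or PBRT15 replicate 2 in PBRT15 (adjusted p up to 0.0735) and without PBRT16 replicate 2 in PBRT16 (0.065). LGALS3BP, a secreted glycoprotein that binds galectin-3, rose from 626 and 757 to 12080 and 14560 and to 11920 and 11530 (log2 difference 4.27 and 4.09, adjusted p = 0.000172 and 0.000192, limma). Of 15 genes in the list, 11 were too low to test, and of the 4 tested, 2 rose and 1 fell in each line. Among all tested genes, 21.6% rose and 19.5% fell in PBRT15, and 21.1% and 19.0% in PBRT16. MGAT3, which adds the bisecting sugar that limits galectin-3 ligands, rose by 1.79 and 1.64 on the log2 scale. HAVCR2 reached at most 13.1, and LAG3 had 6.20 to 62.3 with adjusted p of 0.106 and 0.819 (limma) against parental cells.

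TNFRSF14 (ENSG00000157873.17, chr1:2555639-2565382, plus strand), the gene of HVEM, had a signal of 68.1 and 70.2 in parental cells against 192 and 271 in PBRT15 and 234 and 259 in PBRT16. Both libraries of PBRT16 lay between those of PBRT15, and all 4 were above parental cells. The rise was 3.26-fold in PBRT15 (log2 difference 1.71 ± 0.20, SE, adjusted p = 0.00331, limma) and 3.53-fold in PBRT16 (1.82 ± 0.20, adjusted p = 0.00279, limma), called in all 18 alternatives in each. Between the lines the difference was 0.11 (95% interval -0.39 to 0.62, adjusted p = 0.734, limma). Of the ligands and receptors that HVEM engages, BTLA reached at most 1.503, CD160 at most 5.63 and TNFSF14, or LIGHT, was at 0.

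Costimulatory genes of the TNF family moved in both directions. Of 6 tested genes, 3 were higher and 2 lower in PBRT15 past the threshold, and 2 were higher and 2 lower in PBRT16. Beside these counts, 21.6% of all tested genes rose and 19.5% fell in PBRT15, and 21.1% and 19.0% in PBRT16. TNFRSF9 and TNFSF15, counted as higher in both lines, were tested only because of their signal in the resistant lines. The size of their log2 differences depends on the added 1. CD70, the ligand of CD27, fell from 1117 and 1251 to 75.3 and 86.5 in PBRT15 and to 129 and 92.2 in PBRT16 (log2 difference -3.86 and -3.43, adjusted p = 0.0004 and 0.000543, limma). TNFSF9, the ligand of 4-1BB, fell from 154 and 187 to 88.3 and 79.2 and to 17.0 and 17.8, and was lower in PBRT16 than in PBRT15 by 2.20 (adjusted p = 0.00275, limma). TNFRSF9, 4-1BB itself, rose from 2.01 and 0 to 37.8 and 53.9 and to 424 and 350. FAS, the death receptor, rose by 1.30 in PBRT15 (adjusted p = 0.00509, limma) and had 0.15 in PBRT16 (adjusted p = 0.508, limma).

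Further suppressive molecules made up a list of 25 genes, of which 17 were tested. In PBRT15 10 rose and 4 fell, and in PBRT16 8 rose and 5 fell, with median log2 differences of 1.25 and 1.38. These counts and medians include PTGES, IDO1, TDO2 and PTGS2, which were tested only because of their signal in the resistant lines. The size of their log2 differences depends on the added 1. They also include IL10, which was tested only because of its signal in parental cells. The shares of all tested genes that rose and fell were 21.6% and 19.5% in PBRT15 and 21.1% and 19.0% in PBRT16. CSF1, the macrophage growth factor, rose from 751 and 857 to 18080 and 20050 in PBRT15 and to 18800 and 18950 in PBRT16 (log2 difference 4.57 and 4.55). PTGES, which makes prostaglandin E2, rose from 3.25 and 1.02 to 301 and 371 and to 80.1 and 96.5. ARG2, an arginine-degrading enzyme, fell by 3.45 and by 2.46, and LIF, a cytokine of the IL-6 family, fell by 2.89 and by 3.39. CD200, a ligand of the inhibitory myeloid receptor CD200R, had 416 and 377 in parental cells against 212 and 303 in PBRT15 and 5.50 and 7.89 in PBRT16, where it fell (log2 difference -5.71, adjusted p = 0.000237, limma). The test of PBRT16 against PBRT15 gave -5.07 for CD200 (adjusted p = 0.00119, limma). IDO1, a tryptophan-degrading enzyme induced by interferon and named after its values were seen, was at 0 and 0.68 in parental cells against 44.7 and 53.9 in PBRT15 and 3.98 and 1.25 in PBRT16.

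**Figure D3:**
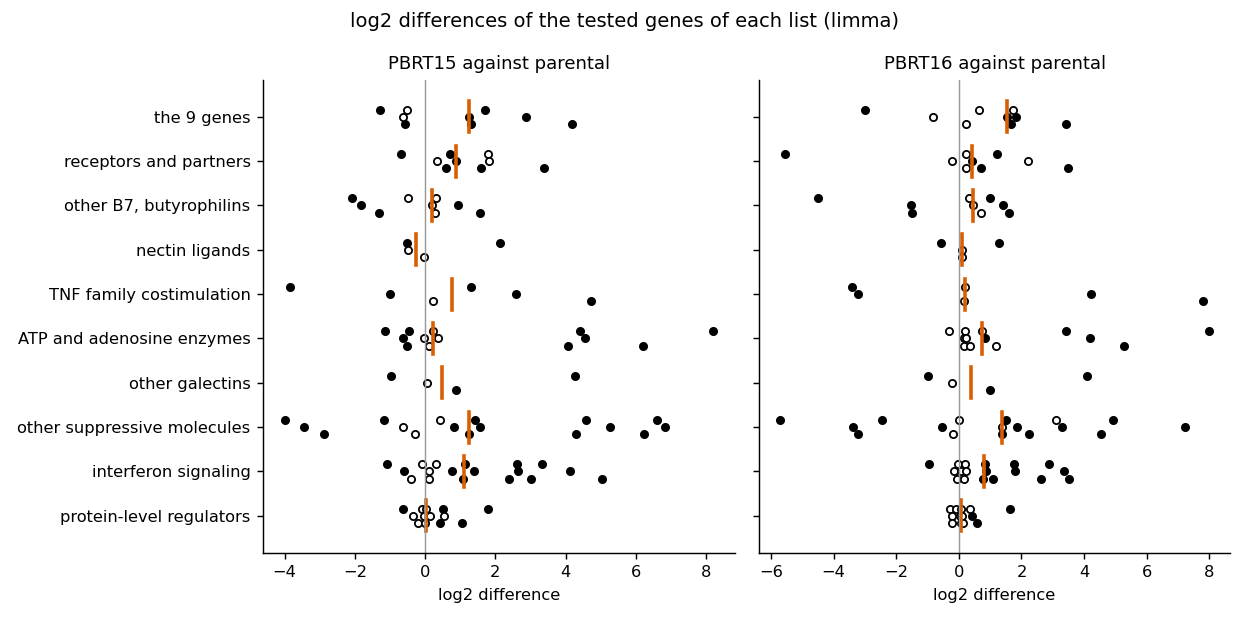
log2 differences (horizontal axes) of the tested genes of each list (rows) in PBRT15 and PBRT16 against the same parental libraries, with filled points for genes that passed an adjusted p of 0.05 (limma), open points for the rest and orange bars at list medians. The medians of the 9 genes are 1.26 and 1.54, of interferon signaling 1.10 and 0.81, and of protein-level regulators 0.02 and 0.06.

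Regulators that act on these proteins rather than on their genes had the list medians nearest to 0. Of 13 tested genes, 4 were higher and 1 lower in PBRT15 past the threshold, and 3 were higher and 0 lower in PBRT16 (limma, with 0 lower also at an unadjusted p under 0.05), with medians of 0.02 and 0.06. The shares higher were 30.8% and 23.1%, beside 21.6% and 21.1% of all tested genes. The shares lower were 7.69% and 0%, beside 19.5% and 19.0%. The values above are RNA, and protein at the cell surface was not measured here.

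Per kb of the longest annotated transcript, NT5E led in parental cells at 2910 ± 192 signal per kb (mean ± SD, n = 2), followed by CD276 at 877 ± 26.3, LGALS3 at 479 ± 5.57 and CD47 at 223 ± 2.65. ENTPD1, CD274, PDCD1LG2 and TNFRSF14 lay between 38.5 and 16.3, and LGALS9 was last at 1.55 ± 1.44. In PBRT15 NT5E (1270 ± 604) and LGALS3 (1200 ± 214) did not differ beyond their spread. In PBRT16 the order was LGALS3 (1400 ± 97.5), CD276 (1020 ± 32.5), CD47 (707 ± 8.01) and NT5E (370 ± 86.9), so 3 genes lay above the one that led in parental cells. With the union of exons as length, 16 of the 27 mean levels moved by more than 1 SD, CD276 to 527 in parental cells and 612 in PBRT16 and LGALS9 to 0.821 in parental cells. The order in parental cells and in PBRT16 was the same, and in PBRT15 CD47 moved ahead of CD276 while ENTPD1 and CD274 moved ahead of LGALS9.

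**Figure D4:**
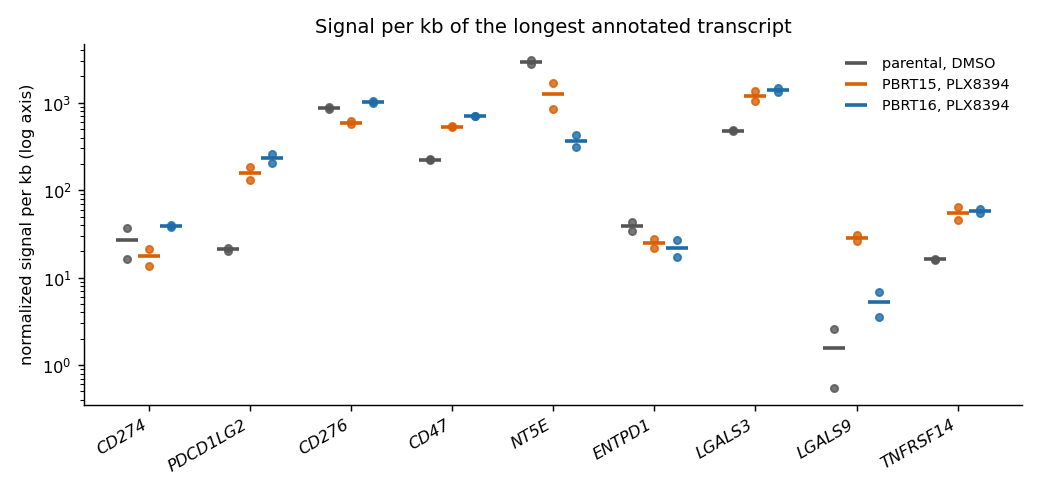
Normalized signal per kb of the longest annotated transcript (vertical axis, log scale) for the 9 genes in parental cells, PBRT15 and PBRT16, with points for the 2 libraries and dashes for their mean. NT5E moves from the highest level in parental cells (2910) to below 3 other genes in PBRT16 (370), while CD274 stays between 17.5 and 39.0.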

How the data were processed

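RNA was sequenced from poly(A)-selected stranded libraries as paired 101-base reads, and per the labels' processing notes STAR 2.6.1a, RSEM and DESeq2 were used on GRCh38. The authors deposited 1 normalized signal value per gene and library. These values are not whole numbers and have a normalization not given in the sources used here. No count test was run, and limma 3.58.1 (R 4.3.3) was used on log2(signal + 1). From 60662 identifiers, 45 pseudoautosomal copies were left out, and symbols came from GENCODE v44, matched without version. Genes whose signal, scaled to the library total, reached 10 in 2 or more libraries and summed to 15 or more were tested in 1 fit of all 6 libraries (3 residual and 1.89 prior degrees of freedom), two-sided. The procedure was checked on simulated data. Alternatives changed the scaling, pseudocount (0.5 or 5), filter, libraries and genes in the fit, variance prior and replicate block, or left out 1 library. The 9 genes and the lists were chosen with earlier results of these data known. From each list the text names up to 3 of the largest rises and falls among called genes with at least 5 per 1000000 of the library total in a group. A screen of the reads for mouse sequence was not given in the sources used here. Some items are not reported here.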

Additional observations from a re-analysis of the deposited data

Results flagged for a closer look

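CD276 was flagged because its difference from parental cells was not the same in both resistant lines, with a tested log2 difference between PBRT16 and PBRT15 of 0.78 (adjusted p = 0.0177, limma), and both libraries of PBRT16 were above both of PBRT15. NT5E was flagged for the same reason, with a log2 difference of -1.71 between PBRT16 and PBRT15 (adjusted p = 0.0443, limma) and no overlap between their libraries.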

How the results depend on the processing

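The signs of all member differences were the same under the 12 settings that left out no replicate, and none of the scalings moved the median of all genes by 0.1 on the log2 scale. The calls of PDCD1LG2, CD47, LGALS3 and TNFRSF14 in both lines, of LGALS9 in PBRT15 and of NT5E in PBRT16 were made in every alternative. With a library left out, 3 uncalled differences changed sign, CD274 in PBRT15 (-1.103 to 0.058, above 0 without parental replicate 1), and between the lines TNFRSF14 (-0.134 to 0.360, below 0 without PBRT15 replicate 1) and ENTPD1 (-0.521 to 0.121, above 0 without PBRT16 replicate 2). With a library left out, 5 to 6 of the 9 genes were called in each line, and 0 to 2 between the lines. Calls over all genes then ran from 3847 to 5843 in PBRT15 (6796 with all libraries), 3748 to 6222 in PBRT16 (6641) and 780 to 1710 between the lines (2612), and over the lists from 45 to 55 (62), 39 to 47 (52) and 7 to 16 (29). Between the resistant lines, the 2 member calls became 0 without the filter on low values, with 1390 genes and 9 list genes called. They became 4 with a filter of 1 per 1000000 in 2 libraries, with 2938 of 14411 tested genes called. A prior that followed the expression level also gave 4, with 3821 genes called. Fitting only the 4 libraries left 16 list genes. Requiring a fold of at least 2 left 3909, 3824 and 1533 genes in PBRT15, PBRT16 and between the lines, where 14 list genes and 1 member remained past it. The cause of these moves was not tested. Whether the replicate numbers pair the samples is not known, and the main fit used no replicate block. Same-numbered libraries deviated from their group means with r of 0.02, 0.04 and 0.14 across genes, which cannot exclude a pairing. With the replicate block, 7 members were called in PBRT15, 6 in PBRT16 and 1 between the lines, beside 6203, 6235 and 1846 of all genes. NT5E lost its call in PBRT15 (adjusted p = 0.0757, limma) and between the lines (0.0763), and ENTPD1 gained one in PBRT15 (0.0378) and PBRT16 (0.0204). Other named genes lost their call in 154 of 606 comparisons with a library left out. The number of libraries and unknown depth limit low genes such as LGALS9.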
